A study of Mus musculus with 8 samples.

Results

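The 40 genes described here encode ligands and receptors that steer growing axons: 10 semaphorins, 6 plexins, 2 neuropilins, 3 Slits, 2 Robo receptors, 2 netrins, 5 netrin receptors, 6 Eph receptors and 4 ephrins. They were taken by symbol from the 24421 gene rows of the count tables, and all 40 symbols were present. Measured was RNA on the ribosomes of Otp-lineage cells of mouse hypothalamus and medial amygdala, obtained by translating ribosome affinity purification (TRAP), in which a tagged ribosomal protein pulls down the RNA being translated. The 4 libraries labelled KO came from mice with Otp-Cre, both Cic alleles floxed and ROSAfsTRAP, and the 4 labelled Control from mice with Otp-Cre and ROSAfsTRAP and no floxed Cic. Both groups were C57BL/6, and both carried the Cre driver and the ribosome tag. No library of unselected input RNA was among the 8, so enrichment for the Otp lineage was not measured. Otp-Cre acts in cells that express the homeobox gene Otp, or descend from such cells. The comparison thus asks how translated RNA differs where Cic, which encodes the repressor Capicua, was targeted in that lineage. The labels state no age and do not say whether a library is 1 animal or a pool, so the p-values below cover only the spread among these 8 libraries.

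Semaphorins bind plexins, either directly or, for most secreted class 3 semaphorins, through a neuropilin co-receptor. Slits are secreted repellents read by Robo receptors, and netrin-1 attracts axons through Dcc and neogenin and repels them through Unc5 receptors. Ephrins sit on the cell surface, tethered by a lipid anchor (class A) or by a transmembrane segment (class B), and signal to Eph receptor tyrosine kinases on the neighbouring cell. Many of these genes stay on in mature neurons, where their products act at synapses and in the upkeep of circuits.

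None of the 40 genes differed between KO and Control past an adjusted p of 0.05 in edgeR's quasi-likelihood test, against 40 of all 15438 genes tested (0.259%, of which 0.194% higher and 0.0648% lower in KO). All 40 passed the filter on low counts. The nearest were Unc5d, a netrin receptor gene at 1.44-fold the Control level (log2 fold change 0.53, standard error (SE) 0.22, edgeR adjusted p = 0.211), and Sema3a, a secreted semaphorin gene at 1.36-fold (0.45, SE 0.09, edgeR adjusted p = 0.222). At an unadjusted edgeR p under 0.05 there were 9 of 40 members (22.5%), against 10.6% of all genes tested. Of these, 8 were higher in KO (20%, against 6.06% of all genes) and 1 was lower (2.5%, against 4.53%). Their number was 4 without Control replicate 1. Levels without overlap between the groups were seen in 1 member, Sema3a (2.5%, higher in KO), against 5.93% of all genes tested and 3.01% in that direction. The DESeq2 test also called 0 members, with 11 at an unadjusted p under 0.05. In such bulk libraries, fewer cells of a type and less RNA per cell cannot be told apart, which holds for every level below.

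As a check of the labels, Cic measured 44.9, 34.5, 59.3 and 37.5 CPM (read counts per 1000000, scaled) in KO replicates 1 to 4 and 103, 72.4, 101 and 101 CPM in Control replicates 1 to 4. The groups did not overlap, and Cic was lower in KO (log2 fold change -1.097, SE 0.21, edgeR adjusted p = 0.00220). Cic lies on chromosome 7, where no member lies. Libraries held 33223878 to 57300362 gene counts, and each member had at least 27 reads in every library, 38 of the 40 at least 100.

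The search for known Capicua sites shows what the sequences near the start sites hold. Capicua binds octamers such as TGAATGAA and TGAATGGA. Both were searched on both strands, with overlapping matches allowed, in the RefSeq promoters of GRCm38.p6, each 250 bases before to 50 after a start. Of the members, 32 had an entry, with 42 promoters between them, and 0 promoters held either octamer, against 2.47% of all 32851 promoters (811). That says only that these letters are not in these windows. Not searched, for lack of an entry, were Unc5d, Plxna1 and Sema6a, which had an unadjusted edgeR p under 0.05. The same holds for Ntn1, Slit1, Dcc, Plxna4 and Efnb3, which did not. For 3 members, Robo1, Sema3a and Sema4d, no searched start lay within 10 kb of the outermost start of the gene in GENCODE, so their outermost starts were not searched. Windows were 300 bases long, so nearer outermost starts could fall outside them too. Examples are Plxna2, whose searched start lay 1.611 kb inside the gene, Ntng1 (0.539 kb), Sema3c (0.535 kb), Nrp1 (0.469 kb) and Unc5c (0.348 kb). The 250 bases before a RefSeq start are shown for Sema3a, the member whose groups did not overlap, and for Plxnb1, the member with an unadjusted p under 0.05 that was lower in KO. The Sema3a start, at 13396784, is 1 of several annotated starts and lies 271.4 kb inside the gene. The 2 windows differ in composition, with 41.3% G and C in the whole Sema3a window and 74.7% in that of Plxnb1. Both are on the plus strand and are printed 5′ to 3′ in lower case, with no capitals because no motif was found.
Sema3a, chr5:13396534-13396783: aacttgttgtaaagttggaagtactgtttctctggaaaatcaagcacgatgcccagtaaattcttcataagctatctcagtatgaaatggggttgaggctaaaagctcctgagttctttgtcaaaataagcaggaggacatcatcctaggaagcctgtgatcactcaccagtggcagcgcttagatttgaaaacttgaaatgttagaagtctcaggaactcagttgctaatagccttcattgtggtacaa
Plxnb1, chr9:109095186-109095435: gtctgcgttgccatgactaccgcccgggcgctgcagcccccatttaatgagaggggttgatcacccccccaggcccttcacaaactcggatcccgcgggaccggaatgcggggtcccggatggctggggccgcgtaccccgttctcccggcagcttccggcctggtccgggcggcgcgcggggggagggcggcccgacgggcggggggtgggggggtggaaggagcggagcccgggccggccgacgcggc

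Levels of the members within a library spanned a wide range. They are levels of whole libraries, in which markers of oligodendrocytes and astrocytes were also found (below). To compare genes, CPM was divided by the length of all annotated exons of the gene in kilobases (CPM per kb), a scale that understates genes whose neurons use short transcripts. In Control the highest was Efnb3, the gene for transmembrane ephrin-B3, at 39.4 ± 1.36 CPM per kb (mean ± SD, n = 4 in this and all later group means). It was followed by Ntng1, which encodes the membrane-anchored netrin-G1, at 26.3 ± 6.32, Unc5a at 19.4 ± 0.975, the transmembrane semaphorin gene Sema6d at 14.1 ± 1.08 and Plxnc1, a plexin that binds Sema7a, at 14.0 ± 0.118 CPM per kb. Efnb3 stood clear of Ntng1 in every Control library, and Unc5a of Sema6d, whereas Ntng1 overlapped Unc5a and Sema6d overlapped Plxnc1. At the low end were Epha3 at 0.257 ± 0.0828, Sema3d at 0.282 ± 0.0853, Sema3e at 0.701 ± 0.154, Sema3c at 0.938 ± 0.214 and Plxnd1 at 0.967 ± 0.222 CPM per kb. Of 39 neighbouring pairs in that order, 6 did not overlap between libraries, so most of the order is a ranking within the spread. From the highest to the lowest member the Control level per length differed 153-fold.

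**Figure D1:**
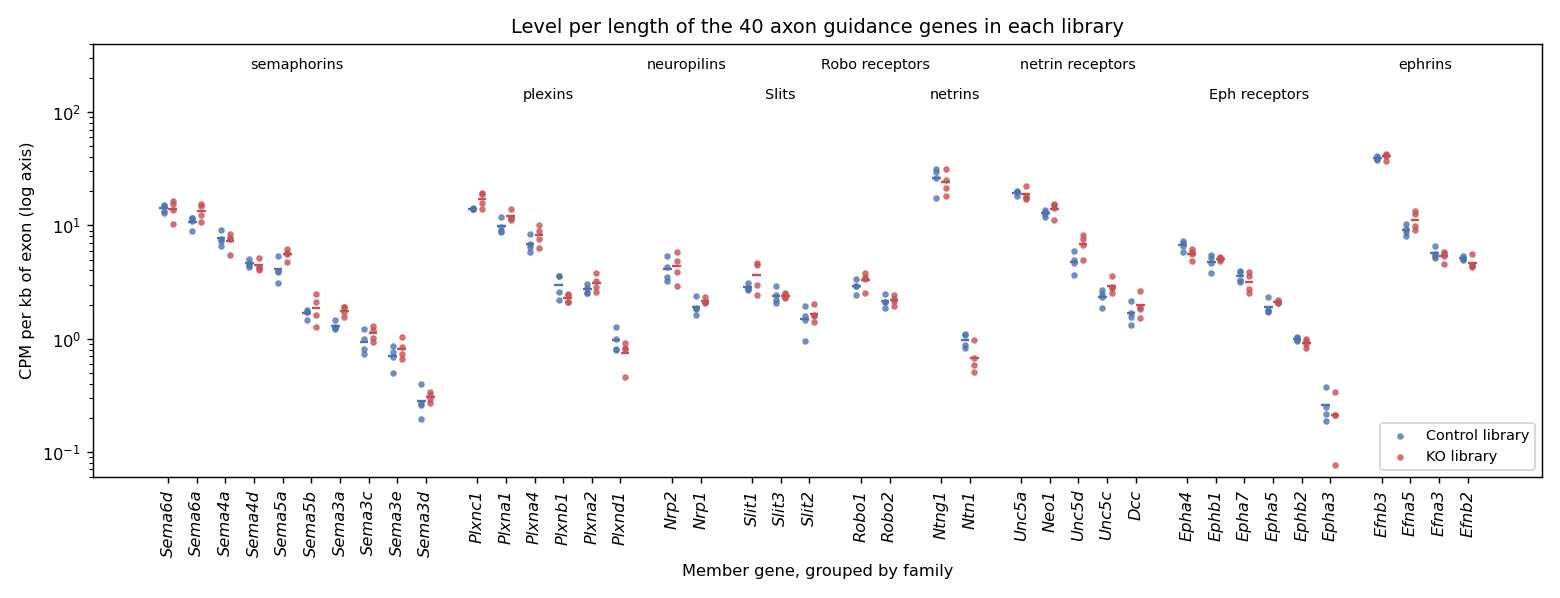
Level per length of each member, in CPM per kb of annotated exon on a log axis, with genes grouped by family and ordered by Control level. Points are libraries (4 Control, 4 KO) and short lines are group means. Efnb3 is highest at 39.4 CPM per kb in Control and Epha3 lowest at 0.257, and the groups overlap in 39 of the 40 genes.

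Receptors and ligands of one system were both found in these libraries, at unequal levels. Among semaphorins the transmembrane Sema6d and Sema6a (10.8 ± 1.31 CPM per kb in Control) and the membrane-bound Sema4a (7.68 ± 1.08) were above the secreted class 3 genes in every Control library, of which Sema3a was highest at 1.29 ± 0.108. Among plexins, Plxna1 (9.79 ± 1.43 CPM per kb) and Plxna4 (6.91 ± 1.101), receptors of class 3 and class 6 semaphorins, came after Plxnc1. Of the co-receptors, Nrp2 was at 4.11 ± 0.960 and Nrp1 at 1.92 ± 0.321 CPM per kb. The netrin-1 gene Ntn1 was low, at 0.972 ± 0.134 CPM per kb, below its receptor genes Unc5a, Neo1 (12.8 ± 0.767), Unc5d (4.79 ± 0.948), Unc5c (2.34 ± 0.334) and Dcc (1.67 ± 0.359). The Slit genes (1.48 to 2.84 CPM per kb) and the Robo genes (2.15 to 2.91) lay in overlapping ranges. Among Eph receptor genes Epha4, which binds both ephrin classes, was highest at 6.69 ± 0.679 CPM per kb.

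The secreted semaphorin gene Sema3a, whose product repels axons through Nrp1 and A-type plexins, was at 26.2, 26.2, 23.8 and 21.4 CPM in KO replicates 1 to 4 and at 17.6, 16.7, 20.1 and 17.3 CPM in Control replicates 1 to 4. The lowest KO library lay just above the highest Control library, replicate 3. The means were 24.4 ± 2.31 and 17.9 ± 1.502 CPM, and the log2 fold change kept its sign in all 16 alternative analyses (0.40 to 0.51, edgeR or DESeq2 adjusted p = 0.0826 to 0.570). Sema3a (ENSMUSG00000028883.17) covers positions 13125414 to 13602565 of chromosome 5 on GRCm38, plus strand. Sema5a, a transmembrane semaphorin with thrombospondin repeats, was at 104, 106, 116 and 89.1 CPM in KO and 72.8, 58.4, 100.4 and 74.5 CPM in Control. Control replicate 3 reached into the KO range, and the other 3 Control libraries lay below it (log2 fold change 0.44, SE 0.18, edgeR adjusted p = 0.264). Sema6a, a transmembrane semaphorin that is both ligand and receptor, was at 94.2, 134, 129 and 109 CPM in KO and 101, 77.6, 102 and 96.9 CPM in Control, with KO replicate 1 inside the Control range (0.31, SE 0.15, edgeR adjusted p = 0.423). Sema6d, the most abundant semaphorin gene per length, was at 144, 174, 164 and 108 CPM in KO and 156, 137, 161 and 142 CPM in Control, with 2 KO libraries above, 1 within and 1 below the Control range (-0.02, SE 0.16, edgeR adjusted p = 0.983). The other 6 semaphorin genes ran from -0.07 (Sema4a) to 0.25 (Sema3c). For the 10 listed genes together, 7 were positive and 3 negative (other semaphorin genes are given below). Their median log2 fold change was 0.19, against a median of 0.02 over all genes tested. That value dropped to 0.098 when KO replicate 2 was left out and to 0.089 without Control replicate 2, and it was 0.29 without Control replicate 3.

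Plexins are the receptors of semaphorins. Plxna1 was at 106, 127, 101 and 106 CPM in KO and 87.2, 79.8, 107 and 80.3 CPM in Control. Only Control replicate 3 lay above any KO library (log2 fold change 0.31, SE 0.12, edgeR adjusted p = 0.373). Plxnc1 was at 159, 132, 162 and 118 CPM in KO, while its Control libraries were close together at 116, 118, 116 and 117 CPM, and KO replicate 4 lay inside that range (0.29, SE 0.11, edgeR adjusted p = 0.385). Plxnb1, a receptor for Sema4d, was at 23.6, 20.05, 23.3 and 20.4 CPM in KO and 34.4, 24.8, 34.2 and 20.9 CPM in Control. Its 3 higher Control libraries lay above every KO library and Control replicate 4 lay among them (-0.39, SE 0.19, edgeR adjusted p = 0.395). Plxna4 (0.25) and Plxna2 (0.19) were positive and Plxnd1, a receptor for Sema3e, negative (-0.37, SE 0.27), all with adjusted p of 0.592 or more in edgeR. The listed A-type genes and Plxnc1 were thus on the positive side and Plxnb1 and Plxnd1 on the negative side. The median of the listed plexins was 0.22 (0.14 without KO replicate 1 and without KO replicate 2). Outside the list, Plxna3 was at 0.18 and the B-type genes Plxnb2 and Plxnb3 were both at 0.02 (edgeR adjusted p = 0.808, 0.982 and 0.986). Annotated antisense transcripts cover 10.71% of the Plxna1 exons and 2.68% of those of Plxnb1, and because the library does not mark strand, reads from them cannot be told apart from the gene's own.

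Of the neuropilin genes, Nrp1 was at 20.8, 22.8, 20.2 and 20.8 CPM in KO and 18.3, 15.9, 23.2 and 17.7 CPM in Control. Only Control replicate 3 exceeded the KO libraries (log2 fold change 0.17, SE 0.12, edgeR adjusted p = 0.757). Nrp2 varied more among libraries of 1 group than between groups, at 69.1, 45.8, 57.9 and 34.4 CPM in KO and 41.6, 51.3, 63.6 and 38.3 CPM in Control (0.09, SE 0.27, edgeR adjusted p = 0.915). The median of the pair was 0.13, and leaving out KO replicate 1 gave 0.040, KO replicate 4 gave 0.205, Control replicate 3 gave 0.27 and Control replicate 4 gave 0.068.

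**Figure D2:**
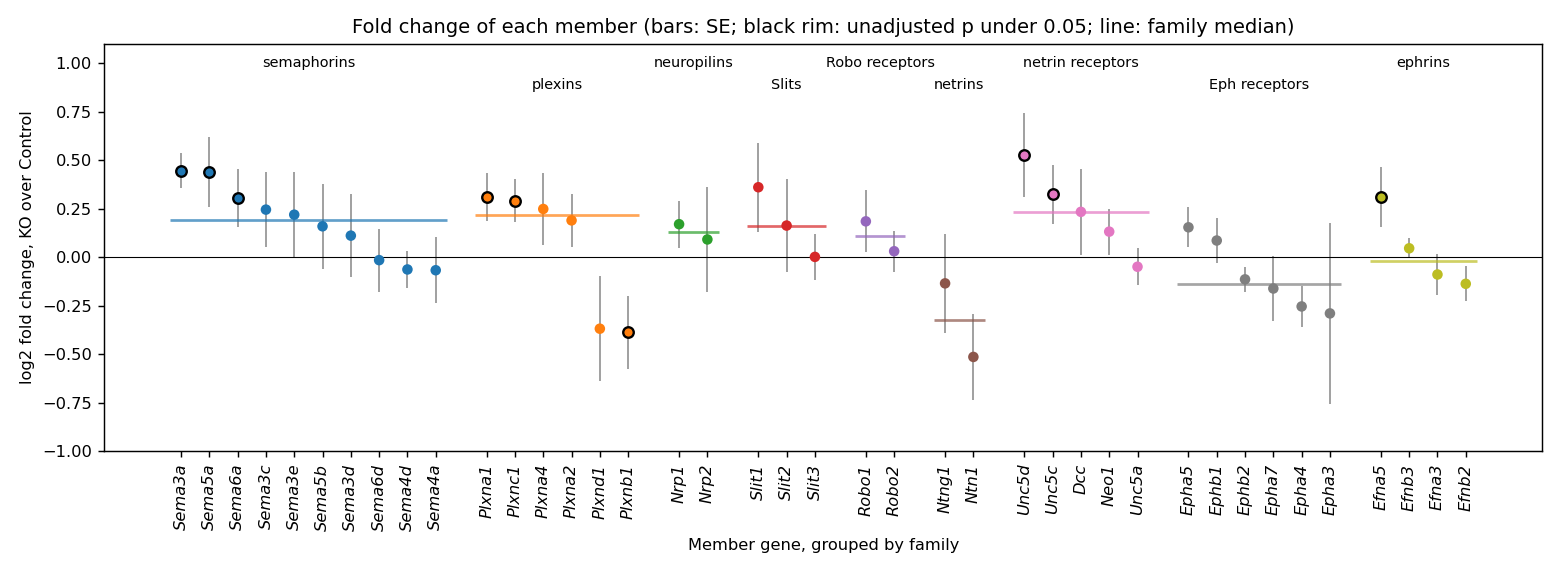
Log2 fold change of KO over Control for each member from the edgeR fit, grouped by family. Vertical bars are the SE of the difference of group means, horizontal lines are family medians, and black rims mark the 9 genes with an unadjusted p under 0.05. Family medians run from -0.32 (netrins) to 0.23 (netrin receptors), and no gene passed the adjusted threshold.

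In the Slit-Robo system, Slit1 was at 26.7, 27.4, 14.3 and 17.8 CPM in KO and 16.6, 16.4, 18.2 and 16.003 CPM in Control. KO replicates 1 and 2 were high, and replicates 3 and 4 were below and within the Control range (log2 fold change 0.36, SE 0.23, edgeR adjusted p = 0.510). Slit2 was at 0.16 and Slit3 at 0.00, the latter with 14.6 ± 0.687 CPM in KO and 14.6 ± 2.34 in Control. The receptor gene Robo1 was at 55.6, 63.0, 57.7 and 42.2 CPM in KO and 55.7, 39.8, 48.2 and 48.5 CPM in Control, with overlap (0.19, SE 0.16, edgeR adjusted p = 0.709), and Robo2 was at 0.03. The Slit median was 0.16, and was 0.044 without KO replicate 1 and 0.32 without Control replicate 3. The Robo median was 0.11, and was 0.033 without KO replicate 2, 0.18 without KO replicate 4 and 0.036 when Control replicate 2 was left out.

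Both listed netrin genes had negative fold changes. Of the tested netrin genes outside the list, Ntng2 (log2 fold change -0.30) and Ntn3 (-0.12) were negative and Ntn4 (0.24) was positive. Their edgeR adjusted p was 0.740 or more. Ntn1, for the secreted netrin-1, was at 4.20, 3.65, 3.17 and 6.10 CPM in KO and 6.76, 5.53, 6.88 and 5.24 CPM in Control. In KO replicates 1 to 3 it was below every Control library, and KO replicate 4 lay within the Control range (log2 fold change -0.51, SE 0.22, edgeR adjusted p = 0.480). The gene (ENSMUSG00000020902.12) covers positions 68209364 to 68400823 of chromosome 11, minus strand. Ntng1, whose product binds the synaptic adhesion protein encoded by Lrrc4c and not Dcc, was at 150, 257, 208 and 175 CPM in KO and 262, 144, 217 and 245 CPM in Control, a wide spread in both (-0.13, SE 0.26, edgeR adjusted p = 0.855).

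Of the receptors, Unc5d was at 70.5, 46.0, 76.5 and 62.0 CPM in KO and 45.2, 33.7, 54.96 and 42.8 CPM in Control. KO replicate 2 lay among the Control libraries and the other 3 KO libraries lay above all of them. Over the 16 alternatives its log2 fold change was 0.42 to 0.65 (edgeR or DESeq2 adjusted p = 0.0652 to 0.511). Unc5d (ENSMUSG00000063626.6) covers positions 28646717 to 29219636 of chromosome 8, minus strand. Unc5c was at 67.9, 53.5, 54.5 and 47.96 CPM in KO and 44.6, 36.1, 51.1 and 47.2 CPM in Control, where replicate 3 reached the KO range (0.32, SE 0.15, edgeR adjusted p = 0.402). Unc5a, the most abundant of the 3 listed Unc5 genes per length, had a fold change near 0, at 72.8, 75.1, 93.2 and 71.8 CPM in KO and 84.7, 81.6, 82.3 and 75.2 CPM in Control (-0.05, SE 0.10, edgeR adjusted p = 0.928). The attractive receptors Dcc (0.23, SE 0.22) and Neo1 (0.13, SE 0.12) overlapped between groups. Of the 5 receptor genes 4 were positive, with a median of 0.23 (0.14 without Control replicate 2 and 0.38 without Control replicate 3). The 2 listed netrin genes had a median of -0.32. The difference between the 2 families was not tested.

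**Figure D3:**
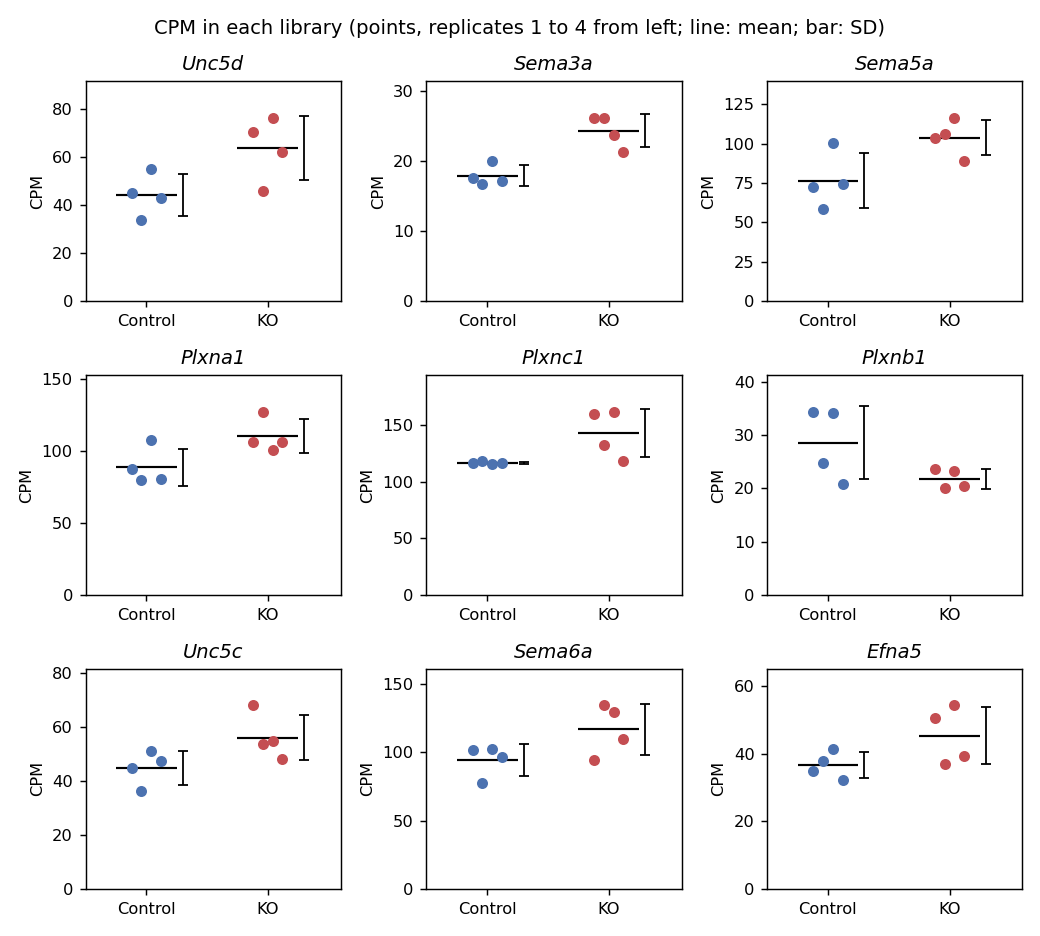
CPM in each library for the 9 members with an unadjusted p under 0.05, in order of p. Points are libraries, horizontal lines are means and bars are SD (n = 4 per group). Sema3a is the gene without overlap (21.4 to 26.2 CPM in KO, 16.7 to 20.1 in Control), and Plxnb1 is the one that is lower in KO.

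The listed Eph receptor and ephrin genes stayed close to 0 or were slightly negative as families. Of the tested Eph receptor genes outside the list, Ephb4 (log2 fold change -1.20), Ephb3 (-0.77), Epha1 (-0.73), Epha8 (-0.35), Epha10 (-0.13) and Ephb6 (-0.13) were negative. Epha6 (0.26) was positive. Of such ephrin genes, Efna1 (0.96) and Efna2 (0.03) were positive and Efnb1 (-0.13) negative. Their edgeR adjusted p was 0.512 or more. Control means were 1.14 CPM for Ephb4, 0.315 for Epha1 and 0.378 for Efna1. Epha4 was at 46.8, 50.1, 44.8 and 38.9 CPM in KO and 53.1, 46.5, 59.1 and 56.7 CPM in Control. Control replicate 2 lay within the KO range and the other 3 Control libraries above it (log2 fold change -0.25, SE 0.11, edgeR adjusted p = 0.483). Epha3 was the least abundant member, at 1.86, 2.94, 0.668 and 1.85 CPM in KO and 1.87, 1.65, 2.17 and 3.27 CPM in Control, and its spread covers changes in either direction (-0.29, SE 0.47, edgeR adjusted p = 0.872). Epha7 (-0.16) and Ephb2 (-0.11) were on the negative side, and Epha5 (0.15) and Ephb1 (0.09) on the positive, giving 2 positive, 4 negative and a median of -0.14. That median was -0.21 without KO replicate 2, -0.040 without KO replicate 3 and -0.081 without Control replicate 4.

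Among the ephrin genes, Efna5, for a lipid-anchored ephrin, was at 50.6, 37.0, 54.4 and 39.5 CPM in KO and 35.1, 37.8, 41.4 and 32.2 CPM in Control. KO replicates 1 and 3 were above all Control libraries and replicates 2 and 4 within their range (log2 fold change 0.31, SE 0.16, edgeR adjusted p = 0.440). Efnb3, the most abundant member per length, was at 118, 131, 137 and 132 CPM in KO and 121, 126, 131 and 124 CPM in Control. It was the most tightly measured difference of the 40 (0.05, SE 0.05, edgeR adjusted p = 0.926). Efna3 (-0.09), of whose exons 14.13% lie under an annotated antisense transcript, and Efnb2 (-0.14) were slightly negative, and the family median was -0.02 (-0.044 to 0.015 when each library was left out, positive without Control replicate 4).

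By role, the 19 ligand genes had 12 positive and 7 negative values and a median log2 fold change of 0.11, and the 21 receptor genes had 14 positive and 7 negative and a median of 0.13. For all 40 members 26 were positive (65%), against 53.8% of all genes tested, and the median was 0.12 against 0.02. That median was 0.07 without KO replicate 1, 0.06 without KO replicate 2 and 0.19 without Control replicate 3.

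The members varied together between libraries of the same genotype. Relative to the Control mean of each gene, the median of the 40 on the log2 CPM scale was 0.01, -0.15, 0.17 and -0.04 in Control replicates 1 to 4 and 0.08, 0.18, 0.12 and 0.01 in KO replicates 1 to 4. Control replicate 3 was thus at the level of the highest KO library and Control replicate 2 was lowest of all 8. The range among Control libraries, 0.32, was larger than the median difference between the groups. Control replicate 2 was the lowest Control library for 23 of 40 members (57.5%, against 30.2% of all genes tested), and Control replicate 3 the highest for 26 of 40 (65%, against 27.6%). In KO, replicate 2 was highest for 18 of 40 (45%, against 22.8% of all genes). Over all genes tested the same medians stayed between -0.01 and 0.02 in every library, but the scaling of the libraries itself brings the bulk of genes close to 0.

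Most members are long genes: 32 of 40 (80%) span at least 100 kb from start to end, against 15.3% of the 14842 tested genes with an annotated span, and the median span was 190 kb against 24.7 kb. The 32 long members had a median log2 fold change of 0.16 and the 8 shorter ones -0.08. By library, the shorter members were at 0.03, -0.07, 0.16 and -0.12 in Control replicates 1 to 4, so Control replicate 3 was as high in them as in the long members (0.17), and at -0.12, -0.04, -0.05 and -0.02 in KO. Among all 2270 tested genes of at least 100 kb, the medians by library were 0.03, -0.07, 0.06 and -0.02 in Control replicates 1 to 4 and 0.08, 0.11, 0.07 and -0.08 in KO, so Control replicate 2 was the lowest and replicate 3 the highest Control library, as for the members, over a smaller range. Their lowest library of all was KO replicate 4, where the members were at 0.01. Their median log2 fold change was 0.05, against 0.02 for the 12572 shorter genes. The part of gene length in the members' values was not tested.

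**Figure D4:**
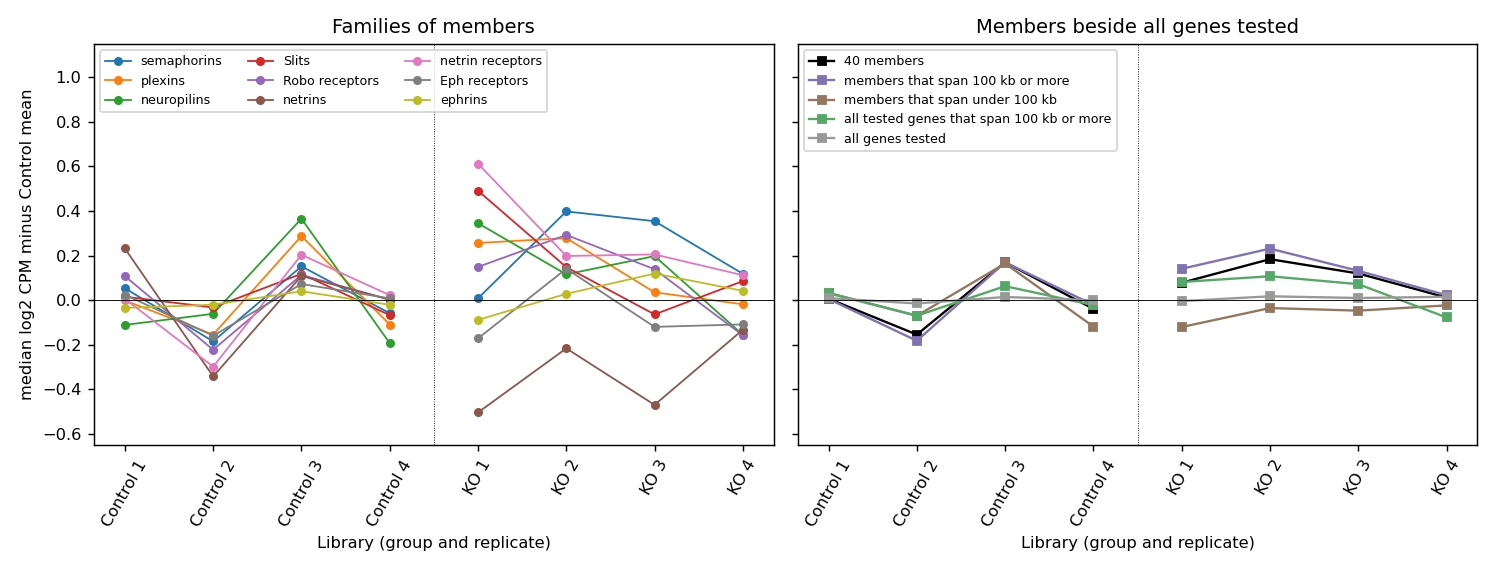
Median log2 CPM of each gene group in each library, relative to each gene's Control mean. The left panel has the 9 families and the right panel the 40 members, their long and short genes and all genes tested, and lines only join the libraries of a group. The members lie at -0.15 in Control replicate 2 and 0.17 in Control replicate 3. All genes tested stay between -0.01 and 0.02, where the scaling of the libraries holds the bulk of genes.

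Markers of other cell types also differed between libraries. The summed level of 8 markers of oligodendrocyte precursors ran from 114 to 175 CPM among KO libraries and from 177 to 214 among Control libraries, without overlap (exact two-sided permutation p = 0.0286, the smallest that 4 against 4 can give, and 0.229 adjusted over 8 marker lists), and 0 of 8 members of that list had a positive fold change. The 12 oligodendrocyte markers summed to 1714 to 3174 CPM in KO and 2707 to 3465 in Control, with 0 of 12 positive and a median log2 fold change of -0.34, and 1 of them, Cldn11, was lower in KO past the adjusted threshold of edgeR. Microglial markers (12, of which 1 was positive, median -0.50) summed to 25.3 to 47.1 and 26.1 to 73.1 CPM, endothelial and mural markers (12) to 10.7 to 28.9 and 12.9 to 46.0 CPM, and ependymal and tanycyte markers (8) to 22.6 to 39.5 and 32.7 to 46.5 CPM. Astrocyte markers (9) summed to 1244 to 1708 CPM in KO and 1294 to 1710 in Control. The 8 general neuronal markers summed to 12485 to 16648 CPM in KO and 12181 to 14374 in Control. Of these, 6 were positive, with a median log2 fold change of 0.12, beside 0.12 for the 40 members. The 6 markers of the Otp lineage summed to 267 to 393 CPM in KO and 230.0 to 319 in Control, with 6 of 6 positive and a median of 0.45. In every other marker list the exact two-sided permutation p was 0.143 or more (0.503 or more adjusted over the 8 lists). No listed marker was at 0 in all libraries. Sema4d and Sema6a are known from oligodendrocytes and Nrp1 and Plxnd1 from blood vessels, and the part of these cells in the members' values was not tested.

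The members were set beside a wider list of axon guidance genes. Of its 76 genes 72 were tested, 0 passed an adjusted p of 0.05 in edgeR, 9 had an unadjusted p under 0.05 (12.5%, against 10.6% of all genes tested), 6 of them higher and 3 lower in KO, and the median log2 fold change was -0.03 with 32 of 72 positive. Among 28 further members of the same families 11 were positive and 17 negative, with a median log2 fold change of -0.12. Of these 28, 2 had an unadjusted p under 0.05 (7.14%, against 10.6% of all genes tested), both lower in KO (against 4.53% in that direction). Sema6b, a transmembrane semaphorin related to Sema6a, was at 30.9, 31.6, 32.8 and 32.5 CPM in KO and 48.04, 45.5, 49.4 and 38.8 CPM in Control, without overlap (-0.51, SE 0.08, edgeR adjusted p = 0.0940). Sema7a, the ligand of Plxnc1, averaged 38.9 ± 5.35 CPM over Control and 30.8 ± 4.84 over KO libraries. Its log2 fold change was -0.34 (SE 0.15, edgeR adjusted p = 0.400), while Plxnc1 lay on the positive side. Of the other semaphorin genes tested, Sema4b (-0.28), Sema3f (-0.14), Sema4g (-0.11), Sema4c (-0.09) and Sema4f (-0.08) were negative, and Sema6c (0.08) and Sema3b (0.01) were positive. Of the 14 other guidance ligands, co-receptors and adhesion molecules, 3 had an unadjusted p under 0.05, all higher in KO (21.4%, against 6.06% of all genes tested): Flrt1 (0.47), the adhesion molecule gene L1cam (0.39) and its relative Chl1 (0.36). With Sema6b, Flrt1 and L1cam made up the 3 of 72 genes without overlap between groups (4.17%, against 5.93% of all genes tested). Of the 30 genes of cytoplasmic signalling downstream of these receptors, 4 had an unadjusted p under 0.05 (13.3%, against 10.6% of all genes tested). Higher in KO were 3 (10%, against 6.06%): Dpysl5, a collapsin response mediator (0.51), Srgap1, a GTPase regulator bound by Robo (0.44), and Rnd1, which binds plexins (0.38). Tiam1, a Rac exchange factor (-0.40), was lower (3.33%, against 4.53%).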

How the data were processed

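The authors deposited 1 table of raw read counts per gene symbol for each of 8 libraries, for which the submitters' processing notes name TopHat2 (2.0.9), HTSeq, DESeq2 and the build mm10; annotation and strand setting: not given in the sources used here. Per the labels' protocols, RNA was amplified from low input and libraries do not mark strand; the counts carry no molecular identifiers. Left out were 92 spike-in rows and 5 counter rows (the latter 72.6% to 90.2% of all records), leaving 24421 genes and 33223878 to 57300362 counts per library. No library repeats another (chi-square per degree of freedom 26.9 or more over 28 pairs). Spike-in counts were 0.0655%, 0.0569%, 0.395% and 0.0739% of gene counts in KO replicates 1 to 4. In Control replicates 1 to 4 they were 0.299%, 0.522%, 0.401% and 0.327%. KO replicate 4 had the highest share of counter rows, 90.2%, and the fewest gene counts. The cause of these differences was not tested. Groups came from the sample titles.

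The test was edgeR's (version 4.0.16, R 4.3.3) robust quasi-likelihood test of KO against Control with no covariate, after filterByExpr (at least 10 counts, total 15) and TMM scaling, with Benjamini-Hochberg adjustment over 15438 genes and a threshold of 0.05. CPM uses TMM-scaled library sizes; SE is that of the difference of group means of log2(CPM + 0.1). Marker sums were compared by exact permutation. Exon lengths, spans and positions are from GENCODE M21 (GRCm38, the same assembly as mm10). Members with every library's value are those with an unadjusted p under 0.05 or no overlap, and in each family the highest per length and the largest fold change. Other guidance genes were picked at an unadjusted p under 0.05, at most 10. Tested semaphorin, plexin, netrin, Unc5, Eph receptor and ephrin genes outside the list are also given, whatever their p. Alternatives were other scalings, filters, DESeq2 1.42.0, a non-robust fit, a replicate block and leaving out each library. The members and lists were chosen with earlier results of these data known; the span classes and printed promoters were chosen after the values were seen.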

Additional observations from a re-analysis of the deposited data

Results flagged for a closer look

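Of 82 groups of 4 libraries checked (41 genes, the 40 members and Cic), 4 held 1 library far from the other 3, where chance gives about 1 in 20 groups. Unc5a was at 93.2 CPM in KO replicate 3 and at 71.8 to 75.1 in the other KO libraries. Efnb2 was at 38.1 CPM in the same library and at 29.4 to 30.7 in the others. Epha5 was at 38.9 CPM in Control replicate 3, the library in which the members were highest among Controls, and at 28.6 to 30.2 in the others. Cic was at 72.4 CPM in Control replicate 2, the library in which the members were lowest, and at 100.5 to 103 in the other Control libraries.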

How the results depend on the processing

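Over 16 alternatives no member passed the adjusted threshold, and of 736 values compared 719 kept their direction and side of the threshold or moved little. For family medians, little meant less than the within-group SD of the family's mean log2 CPM, a loose rule. The 719 thus include the Slit median, 0.163, which was 0.0444 without KO replicate 1. They also include the ephrin median, -0.0215, which was 0.0153 without Control replicate 4. The count over all genes, 40, was 26 with total counts only, 182 with the DESeq2 test and 65 with the replicate block, and 14 to 53 when each library was left out. The block left 0 members called and a members' median log2 fold change of 0.12. The labels do not state that the replicate numbers pair mice, so the main test did not pair them. Same-numbered libraries deviated together at correlations of -0.05 to 0.12. Differently numbered libraries were not compared in this way, so these values cannot decide whether the numbers pair mice. With DESeq2, 1 other guidance gene passed, Sema6b (-0.52, DESeq2 adjusted p = 0.00687; 0.00687 to 0.390 over all alternatives). The netrin receptor median was 0.14 to 0.38 when each library was left out, at its highest without Control replicate 3. Sema6d changed sign without KO replicate 4 (0.10), Control replicate 1 (0.0071) or Control replicate 3 (0.025), within -0.11 to 0.10 in all, and Nrp2 without KO replicate 1 (-0.089) or Control replicate 4 (-0.0079), within -0.089 to 0.25. The cause was not tested. The members with an unadjusted p under 0.05 numbered 4 to 13. The spread between libraries limits what can be called here: the median coefficient of variation of the members was 13.9% in Control and 15.3% in KO.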
